A study of Homo sapiens with 4 samples.

Results

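The Fc receptor-like (FCRL) family was examined in NUDUL1, a human cell line from a diffuse large B cell lymphoma of the germinal center B cell-like (GCB) subtype. The members were taken by symbol from the table of normalized log2 reads, and 7 of its 25066 genes belonged to the family: FCRL1, FCRL2, FCRL3, FCRL4, FCRL5, FCRLA and FCRLB. The cells came from a single clone with doxycycline-inducible Cas9 and had been transduced with the thromboxane receptor Tbxa2r. They then received 1 sgRNA per genotype, either a control sgRNA (Control) or a sgRNA against GNA13 (GNA13-deficient), the gene of the G protein Gα13. Both genotypes were treated with U46619, a stable thromboxane-A2 analog, at 10 nM for 24 h, and each gave 2 libraries. Untreated cells had no part in the comparison, which was therefore between genotypes under receptor stimulation, each represented by 1 sgRNA.

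FCRL proteins are relatives of the classical Fc receptors that are found mostly on B cells. FCRL1 to FCRL5 sit in the plasma membrane and carry tyrosine motifs in their cytoplasmic tails, of the activating (ITAM-like) kind, the inhibitory (ITIM) kind or both, through which they tune signaling from the B cell antigen receptor. FCRLA and FCRLB lack a membrane anchor and stay inside the cell, and FCRLA is known as a protein of the endoplasmic reticulum that associates with immunoglobulin and is abundant in germinal center B cells. FCRL4 is best known as a marker of memory B cells in mucosal and tonsillar tissue.

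The 7 genes lie in 2 groups on chromosome 1 (GRCh37, the build also called hg19; GENCODE annotation). FCRL5 (157483167 to 157522305), FCRL4 (157543537 to 157567875), FCRL3 (157644111 to 157670559), FCRL2 (157715523 to 157746922) and FCRL1 (157764193 to 157789910) follow each other on the minus strand within 306.7 kb. FCRLA (161676762 to 161684142) and FCRLB (161691334 to 161697933) lie side by side on the plus strand within 21.2 kb, beside the FCGR2 and FCGR3 genes. The bases directly upstream of the start sites are shown for the 3 members whose levels were called different between genotypes and, for comparison, for FCRL1, which was not. Each run holds the 250 bases before the RefSeq start (sequence from the RefSeq GRCh38.p14 table, placed in GRCh37 by its only exact match on chromosome 1), read 5′ to 3′ on the minus strand, and overlaps no annotated gene or exon. Capitals mark matches to the PU.1 core GAGGAA on either strand and to the word ACTTCCT, and the matches in FCRL1 at its start site overlap each other.
FCRL2, chr1:157746923-157747172: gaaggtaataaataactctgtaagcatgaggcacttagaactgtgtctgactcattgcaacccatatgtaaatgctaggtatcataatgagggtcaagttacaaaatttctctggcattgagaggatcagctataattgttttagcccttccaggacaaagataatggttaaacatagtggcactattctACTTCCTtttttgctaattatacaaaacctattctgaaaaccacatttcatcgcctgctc
FCRL4, chr1:157567876-157568125: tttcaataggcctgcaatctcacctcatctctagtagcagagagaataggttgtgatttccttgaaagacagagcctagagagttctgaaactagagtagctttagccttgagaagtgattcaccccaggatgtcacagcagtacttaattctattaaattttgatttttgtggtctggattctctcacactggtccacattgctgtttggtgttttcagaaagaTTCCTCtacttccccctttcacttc
FCRL5, chr1:157522306-157522555: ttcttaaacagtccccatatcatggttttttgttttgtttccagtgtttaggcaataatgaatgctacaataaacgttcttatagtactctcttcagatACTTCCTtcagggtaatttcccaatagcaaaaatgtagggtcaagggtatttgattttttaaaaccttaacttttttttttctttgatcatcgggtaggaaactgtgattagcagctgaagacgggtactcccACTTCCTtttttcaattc
FCRL1, chr1:157789911-157790160: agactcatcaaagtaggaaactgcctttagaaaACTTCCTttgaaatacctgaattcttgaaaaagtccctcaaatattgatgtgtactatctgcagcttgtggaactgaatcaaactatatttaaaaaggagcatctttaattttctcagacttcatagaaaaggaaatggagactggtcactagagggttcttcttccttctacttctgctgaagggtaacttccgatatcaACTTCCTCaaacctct

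The letters were searched on both strands in the table's full windows, which add 50 bases after the start. PU.1 is a transcription factor of B and myeloid cells, and its core was found in 4 of the 7 members (FCRL1, FCRL4, FCRLA and FCRLB). Since FCRLB has 3 windows, of which 1 matched, this was 4 of the members' 9 windows, against 27.9% of all 35116 windows. The octamer ATGCAAAT, bound by the B cell factor OCT2 and by OCT1, was found in 1 window of FCRLB and in 1.8% of all windows. The FOXO motif GTAAACA (3.4% of windows) and the core CCCNNGGG of the B lineage factor EBF1 (19.1%) were found in 0 members. The word ACTTCCT was picked after the letters had been read. It stood once each before the RefSeq starts of FCRL2 and FCRLA and at 2 places before those of FCRL1 and FCRL5. That was 4 of the 9 windows, against 8.2% of all 35116 windows. Counted from the start site, the matches began at base -151 and base -18 in FCRL5, at -217 and -16 in FCRL1, at -60 in FCRL2 and at -44 in FCRLA, where the match overlapped that of the PU.1 core. The 250 bases before the RefSeq start of FCRLA overlapped an annotated exon of FCRLA itself, unlike the runs shown above. The word was thus present both in members called different (FCRL2, FCRL5) and in members that were not (FCRL1, FCRLA).

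The targeted gene was measured first. GNA13 stood at 12.46 and 12.45 log2 normalized reads in the libraries labelled Control and at 13.10 and 13.11 in the libraries labelled GNA13-deficient, from 5526, 5671, 8562 and 8213 reads. It was therefore 1.57-fold higher, not lower, in the libraries labelled GNA13-deficient (log2 difference 0.65, SE 0.051, limma, adjusted p = 0.00214). A level per gene does not show small edits at a guide site, so it neither checks nor contradicts the loss of protein, and directions are given as the labels have them. Control libraries and GNA13-deficient libraries stand here for the libraries that carry those labels. Mapped reads per library ranged from 29209544 to 31537955. Nothing says that libraries of 1 genotype came from separately derived cells beyond treatment in duplicate, so p-values measure the spread between these libraries, which may be technical.

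Of the 16945 genes tested, 5037 (29.7%) had an adjusted p under 0.05, of which 2218 (13.1%) were higher and 2819 (16.6%) were lower under the GNA13-deficient label. Higher genes were 44% of the calls, and their share was 58.6% with libraries centered on B cell markers and 69.1% with libraries centered on their medians. Against this background, FCRL2, FCRL4 and FCRL5 rose in the cells labelled GNA13-deficient, 3 of 7 members or 42.9%. In this fit 0 members were called lower. FCRLA, 1 member, had a negative difference with an unadjusted p under 0.05 and was called lower under several alternatives, among them quantile normalization, a robust variance prior and voom on the recovered reads. The median log2 difference of the 7 members was 0.44, and that of all genes tested was -0.02. The value of 0.44 is that of FCRL3, which was not called (SE 0.489, adjusted p = 0.544 by limma). With 3 of 7 members called, the share for the family was not tested against that of all genes. The called genes were 3 of the 5 transmembrane members, and the difference between these and the 2 intracellular members was not tested.

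**Figure D1:**
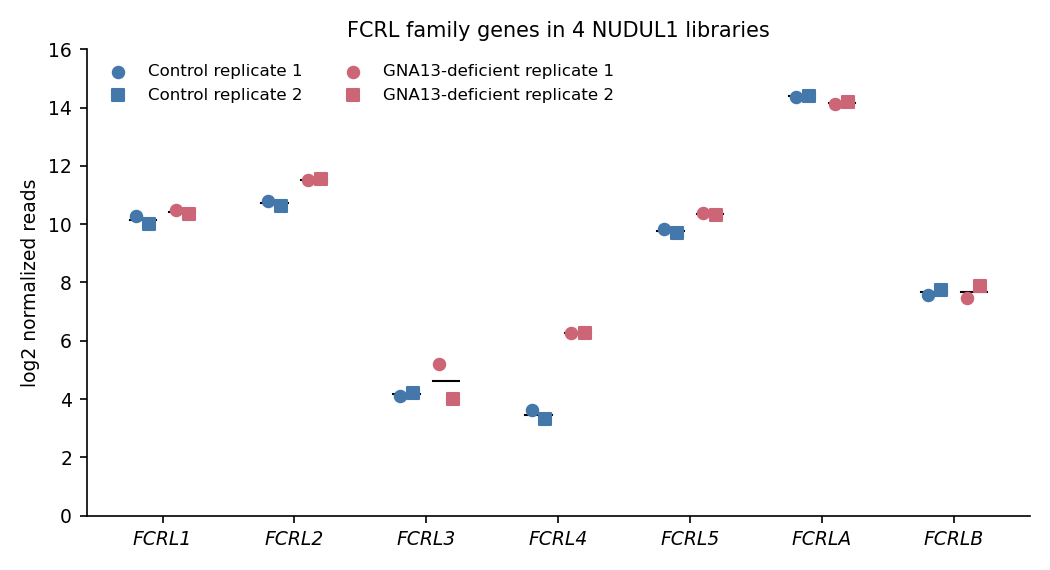
Level of each family member (x axis) as log2 normalized reads (y axis) in each of the 4 libraries. Points are libraries and bars are means of 2. The Control points of FCRL2, FCRL4 and FCRL5 all sit below the GNA13-deficient points, while those of FCRL3 and FCRLB overlap them.

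Levels were compared between members as normalized reads per kb of the canonical transcript, by their median over the 4 libraries. FCRLA was by far the most abundant member with 9620 reads per kb, followed by FCRL2 (911), FCRL1 (414), FCRL5 (202) and FCRLB (101). FCRL4 (12.9) and FCRL3 (3.88) were scarce. Over the 4 libraries the ranges of neighbors in this order did not overlap by this length, except for FCRL4 (2.84 to 22.3) and FCRL3 (3.48 to 7.97). Per kb of all annotated exons of a gene, the medians kept this order. By that length FCRL2 (466) was nearer to FCRL1 (322), and FCRL5 (87.6) nearer to FCRLB (77.5), and the ranges were not compared. Among the genes tested, the mean level of FCRLA stood at percentile 98.7, that of FCRL2 at 83.1 and that of FCRL4 at 32.2. FCRL6, the remaining human FCRL gene, which is known from cytotoxic T and NK cells, was listed at 0 in all 4 libraries. Transcripts of the members shared few 50-base stretches with those of other genes, at most 1.19% of the stretches of a member (FCRL2). No member shared exon sequence on its own strand with a neighbor. FCRL3 overlapped an exon of an unnamed gene on the opposite strand, and the strand setting of the counting is not given in the sources used here.

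FCRL4, an ITIM-bearing receptor that binds J chain-linked IgA, showed the largest difference among the members. It stood at 3.61 and 3.30 log2 normalized reads in the Control libraries and at 6.27 and 6.28 in the GNA13-deficient libraries. The 2 genotypes were well apart, and the replicates of each were close together. The log2 difference was 2.82 (SE 0.30, 95% interval 2.05 to 3.58, adjusted p = 0.00394), a 7.04-fold higher level (interval 4.15 to 12.0), which ranked 26 from the highest among the 16945 genes tested. These values rested on 12 and 10 reads in the Control libraries (exact Poisson 95% intervals 6.2 to 21.0 and 4.8 to 18.4) and on 75 and 72 reads in the GNA13-deficient libraries (59.0 to 94.0 and 56.3 to 90.7), where intervals cover counting error only. FCRL4 thus passed from a level next to that of FCRL3 to one above it, with 3.52 and 2.84 reads per kb in the Control libraries and 22.2 and 22.3 in the GNA13-deficient libraries, but it stayed well under FCRLB in all 4. From bulk RNA, more cells that express a gene and more RNA per cell cannot be told apart.

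FCRL2, a receptor of memory B cells and chronic lymphocytic leukemia cells with both kinds of tyrosine motif, was the most abundant transmembrane member. Its levels were 10.79 and 10.63 log2 normalized reads in the Control libraries and 11.53 and 11.54 in the GNA13-deficient libraries, from 1739, 1614, 2874 and 2758 reads. The groups did not overlap, and the log2 difference was 0.82 (SE 0.07, 95% interval 0.64 to 1.00, adjusted p = 0.00254), or 1.76-fold. FCRL5, which binds IgG and also carries both motifs, stood at 9.83 and 9.70 against 10.39 and 10.31, from 894, 844, 1310 and 1176 reads. It too differed without overlap, by 0.59 (SE 0.076, interval 0.39 to 0.78, adjusted p = 0.00681), or 1.5-fold. Without a filter on low values the adjusted p of FCRL5 was 0.0597.

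FCRL1 is the member with ITAM-like motifs alone and acts as a co-stimulator of the antigen receptor. It stood at 10.27 and 10.00 log2 normalized reads in the Control libraries and at 10.48 and 10.35 in the GNA13-deficient libraries. The GNA13-deficient values were above both Control values, but the difference between the means was about as large as the gap between the Control libraries. The log2 difference of 0.28 (SE 0.109, interval from just under 0 to 0.57) had an adjusted p of 0.119. FCRL1 was called under some alternatives, among them libraries centered on their medians (adjusted p = 0.0189) and the replicate number in the fit (adjusted p = 0.0203). It was not called under others, among them voom (adjusted p = 0.0796) and a robust variance prior (adjusted p = 0.109). FCRL3, a receptor for secretory IgA whose promoter variation is known from autoimmune disease, had 17 and 19 reads in the Control libraries and 36 and 15 in the GNA13-deficient libraries. The groups overlapped, the log2 difference was 0.44 (SE 0.489, interval -0.83 to 1.71, adjusted p = 0.544), and without GNA13-deficient replicate 1 it was -0.16. The exact Poisson intervals of the 2 GNA13-deficient libraries (25.2 to 49.8 and 8.4 to 24.7) did not overlap, so these replicates differed by more than counting error. With this spread a change of FCRL3 was not detectable, and the interval leaves room for levels from 0.564-fold to 3.26-fold.

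**Figure D2:**
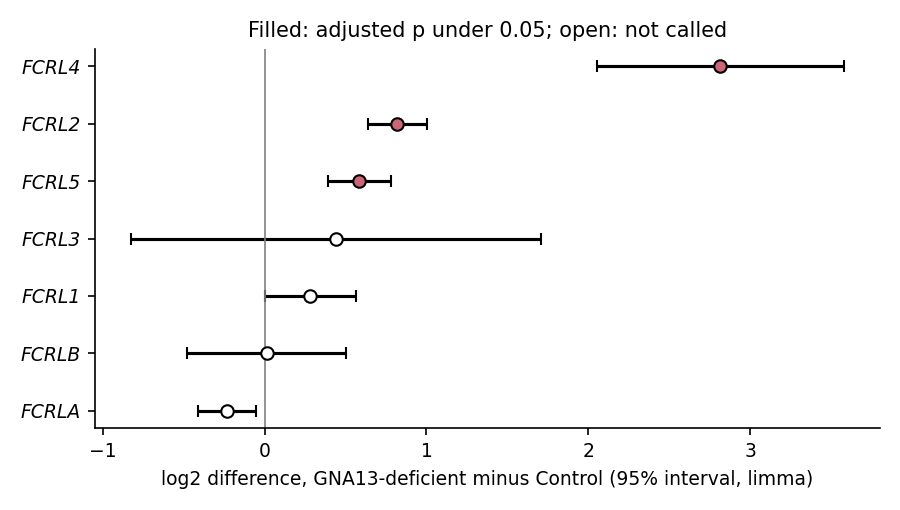
Log2 difference (GNA13-deficient minus Control, x axis) of each member with its 95% limma interval. FCRL4, FCRL2 and FCRL5 (filled) had an adjusted p under 0.05. The intervals of FCRL3 and FCRLB include 0, that of FCRL1 reaches 0, and that of FCRLA ends at -0.05.

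Of the intracellular members, FCRLA stood at 14.38 and 14.40 log2 normalized reads in the Control libraries and at 14.11 and 14.20 in the GNA13-deficient libraries, from 20924, 21988, 17207 and 17544 reads. Both GNA13-deficient values were below both Control values. The log2 difference of -0.23 (SE 0.07, interval -0.41 to -0.05, a 0.851-fold level) had an adjusted p of 0.0645 and was not called. The difference depended on the scaling of the libraries, at -0.41 with quantile normalization (adjusted p = 0.0045) and -0.03 with libraries centered on their medians (adjusted p = 0.838). FCRLB, a cytoplasmic relative of FCRLA with a more restricted expression, stood at 7.56 and 7.75 against 7.46 and 7.89. Its groups overlapped, with a log2 difference of 0.01 (SE 0.189, interval -0.48 to 0.50, adjusted p = 0.971). Differences of up to 1.42-fold upward or 0.719-fold downward stay within this interval.

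The make-up of the family's reads differed between genotypes. Reads of the 5 transmembrane members summed to 3942 and 3470 normalized reads in the Control libraries and to 5834 and 5635 in the GNA13-deficient libraries. With 2 libraries against 2, the smallest two-sided p of an exact permutation test is 0.333, so these sums are a description. FCRL4 made up 0.31% (Wilson 95% interval 0.177 to 0.541) and 0.284% (0.154 to 0.521) of the transmembrane reads in the Control libraries, and 1.32% (1.05 to 1.65) and 1.37% (1.09 to 1.73) in the GNA13-deficient libraries. The Wilson intervals cover counting error within a library only, not the spread between replicates. FCRL2 made up 44.9% and 45.8% against 50.6% and 52.7%. The share of FCRL1 was 31.3% and 29.5% against 24.5% and 23.2%, whereas that of FCRL5 stayed between 22.5% and 23.9% in all 4 libraries. FCRL2 had 1.43 and 1.55 reads per FCRL1 read in the Control libraries and 2.07 and 2.27 in the GNA13-deficient libraries. These ratios within a library do not change with a constant factor per library. FCRLA held 83.7% and 85.4% of the reads of all 7 members in the Control libraries and 74.6% and 76.3% in the GNA13-deficient libraries.

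**Figure D3:**
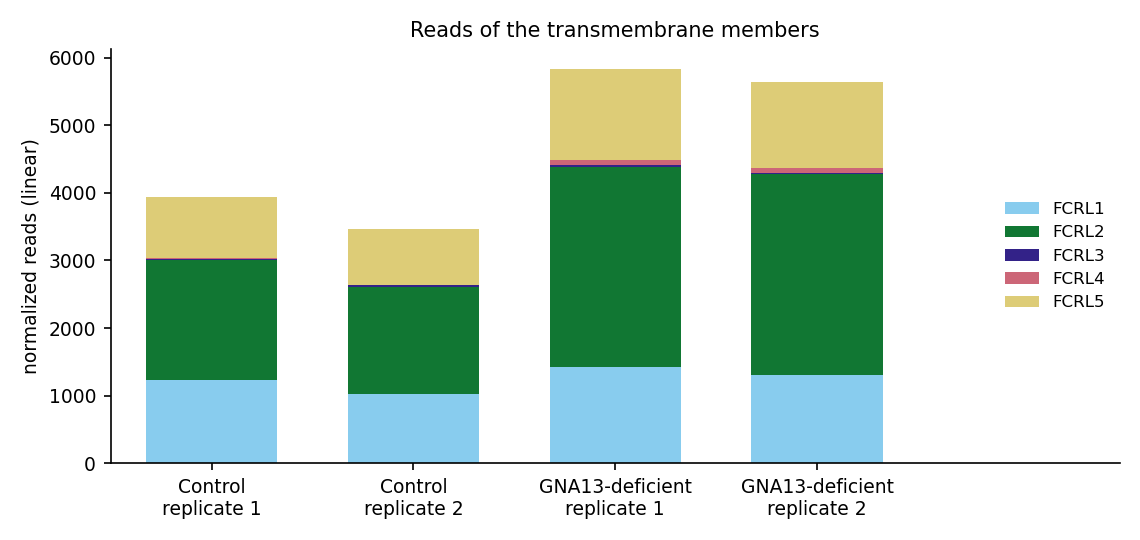
Normalized reads on a linear scale (y axis) of the 5 transmembrane members, stacked, in each library. The stacks reach 3942 and 3470 in the Control libraries and 5834 and 5635 in the GNA13-deficient libraries, and FCRL2 is the thickest layer in each.

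Genes within 500 kb of the 2 groups were examined next. Of 30 protein-coding neighbors, 27 were in the table and 22 were tested, with 7 higher, 1 lower and 14 not called. The share called was 36.4%, against 29.7% of all genes tested, and the median log2 difference was 0.27. Around FCRL5 to FCRL1, 3 of 7 tested neighbors were higher, and all 3 were CD1 genes, which encode lipid antigen-presenting molecules. CD1C, whose start site lay 776.5 kb from the far end of the group, had 52 and 51 reads in the Control libraries and 449 and 504 in the GNA13-deficient libraries (log2 difference 3.28, SE 0.152, adjusted p = 0.00101). CD1D had 61 and 83 against 183 and 166 reads (1.36, adjusted p = 0.00946), and CD1A had 9 and 7 against 19 and 30 (1.66, adjusted p = 0.0419). On the other side, ARHGEF11, an exchange factor gene, fell by 1.63 on the log2 scale (adjusted p = 0.00157), from 620 and 705 reads to 218 and 190. The nearest tested neighbor on each side of the group was not called. ETV3 differed by 0.29 (adjusted p = 0.0807) and CD5L, with 6 to 11 reads, by 0.58 (adjusted p = 0.333).

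Around FCRLA and FCRLB, 4 of 15 tested neighbors were higher and 0 were lower by limma, with 0 lower at an unadjusted p under 0.05 and 0 lower by voom. FCGR2B, the inhibitory IgG receptor of B cells, stood at 8.04 and 7.94 log2 normalized reads in the Control libraries and at 8.48 and 8.76 in the GNA13-deficient libraries, a log2 difference of 0.63 (SE 0.133, adjusted p = 0.0256). Its sequence is nearly that of FCGR2C, which had 2 to 5 reads, so the split of reads between them is uncertain. HSPA6, a heat shock protein gene, was called higher on 2 and 0 reads against 5 and 5. It passed the filter on low values only with the GNA13-deficient libraries, so its difference depends in part on the listed 0. HSPA6 is included in the counts of neighbors called higher. SDHC, a gene of the mitochondrial respiratory chain, was higher by 0.34 (adjusted p = 0.017), and DUSP12 and ATF6, which follow FCRLB, were not called. FCGR2B is the nearest tested gene on the opposite side, before FCRLA. The count of called neighbors was 13 with libraries centered on their medians.

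**Figure D4:**
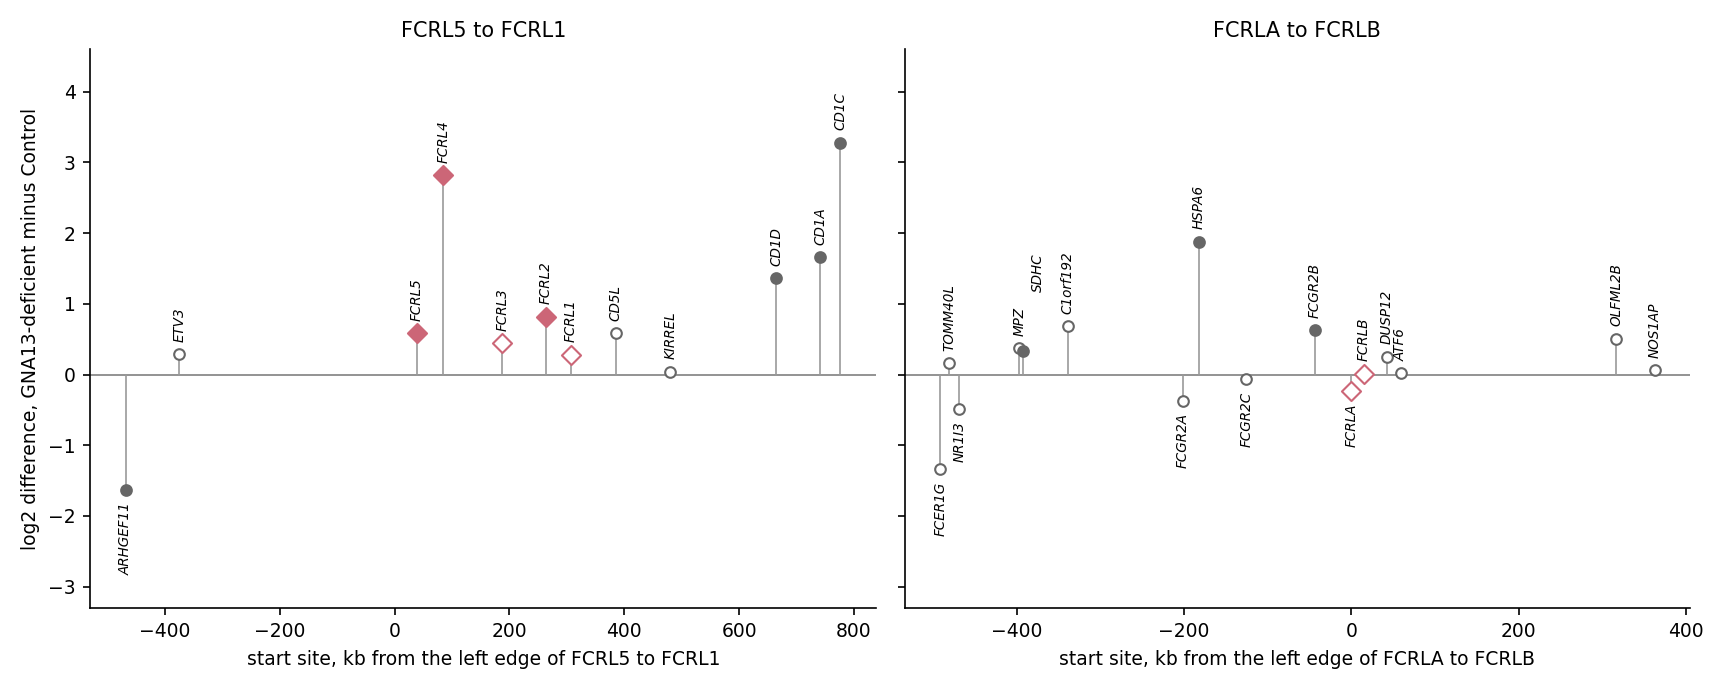
Log2 difference (GNA13-deficient minus Control, y axis) of the tested genes around FCRL5 to FCRL1 and around FCRLA to FCRLB, by the distance of each start site in kb from the edge of the group with the lower coordinate. Diamonds are family members, circles are neighbors, and filled symbols had an adjusted p under 0.05. 1 tested neighbor is not drawn. FCRL4 and CD1C stand highest, and FCRL2, CD1D and CD1A, all called higher, lie between them along with genes that were not called.

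The relatives of the family were few in these cells. Of 17 classical Fc receptors and related Ig-binding genes, 7 were listed at 0 in all libraries and 9 were tested, with 1 higher, 2 lower and 6 not called (median -0.37). The 1 higher was FCGR2B, which is also among the neighbors above. FAIM3, the IgM receptor gene FCMR, fell by 0.46 (11.12 and 11.14 against 10.67 and 10.66 log2 normalized reads, adjusted p = 0.00446). TRIM21, a cytosolic antibody receptor, fell by 0.33 (adjusted p = 0.034). FCER2 (CD23), the low-affinity IgE receptor of B cells, stood at 9.48 and 9.46 against 9.32 and 9.24 (-0.19, adjusted p = 0.117). The median of this group was below 0 and that of the FCRL members above 0, and the difference between the groups was not tested. Each median is the value of a gene that was not called. These are FCGR2A, with 56 to 91 reads (adjusted p = 0.262 by limma), and FCRL3, with 15 to 36 reads (adjusted p = 0.544).

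Genes of proteins that act with FCRL receptors at the antigen receptor ranged from 7 reads in a library (CR2) to 29691 (the kinase gene SYK). Of these 19 genes, all tested, 5 were higher, 6 were lower and 8 were not called (57.9% called, median -0.04). Of all genes tested, 29.7% were called, a share that includes many genes of low level. With the filter at the median mean level, 10 of 18 signaling partners and 4083 of 8473 genes were called. The share of this list was not tested against that of all genes. VAV1, a guanine nucleotide exchange factor that acts downstream of the antigen receptor, was higher by 0.43 (10.48 and 10.40 against 10.86 and 10.88, adjusted p = 0.00724). CR2, a complement receptor of B cells, fell by 1.75 (34 and 36 reads against 7 and 14, adjusted p = 0.0461), and the Src kinase FYN fell by 0.81 (adjusted p = 0.0031). The phosphatases that dock at ITIMs were examined as part of the list. INPP5D (SHIP1) fell by 0.37 (adjusted p = 0.0112), while PTPN6 (SHP1) and PTPN11 (SHP2) differed by -0.05 (adjusted p = 0.537) and 0.08 (adjusted p = 0.499). Of 13 genes for FCRL ligands, 4 were in the table under the listed symbols, and the immunoglobulin heavy chain genes were not analysed here. IGJ, the J chain of polymeric IgA and IgM, stood at 16.06 and 16.27 against 16.25 and 16.51 (0.22, adjusted p = 0.336). HLA-DRB5, an MHC class II chain whose reads may be split with HLA-DRB1, was lower by 0.52 (adjusted p = 0.0111). HLA-DR is on this list as a ligand of FCRL6, which was listed at 0 in every library.

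**Figure D5:**
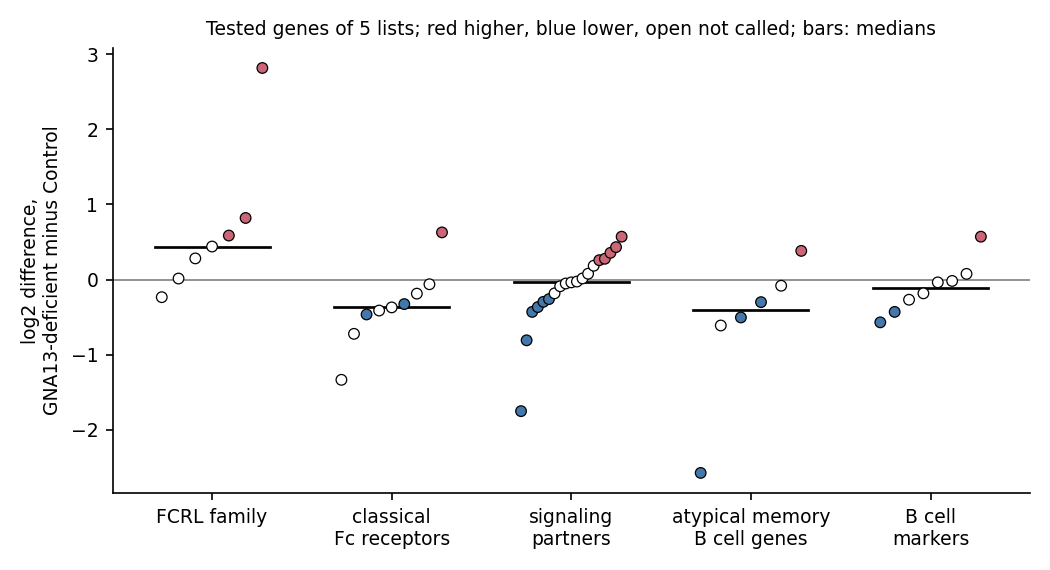
Log2 difference (GNA13-deficient minus Control, y axis) of the tested genes of 5 lists, ordered by value within each list. Red marks genes called higher, blue genes called lower, and bars are medians, which stand at 0.44 for the FCRL family, -0.37 for classical Fc receptors, -0.04 for signaling partners, -0.40 for atypical memory B cell genes (with CD27, which is low in that state) and -0.11 for B cell markers. The FCRL bar is the value of FCRL3 and the classical Fc receptor bar that of FCGR2A, neither of them called.

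FCRL4 and FCRL5 are used as markers of atypical memory B cells, so a list of other genes used to tell that state apart was examined. Of 11 genes, 6 were tested, with 1 higher, 3 lower and 2 not called (median -0.40). TBX21 and ITGAX, which encode the defining markers T-bet and CD11c, had at most 1 read in any library, and SOX5, RUNX2 and CXCR3 were listed at 0. CD27, a memory marker that atypical cells lack, had 561 and 660 reads in the Control libraries and 93 and 102 in the GNA13-deficient libraries, and fell by 2.57 (SE 0.136, adjusted p = 0.00114). The count and median of the list include CD27 and so carry no direction for the state. RUNX1 was lower (-0.30, adjusted p = 0.0323), and TNFRSF13B, the BAFF and APRIL receptor TACI, was higher (0.38, adjusted p = 0.012).

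Markers of the cell type were present, among them MS4A1, CD79A, CD79B and PAX5. Of 8 B cell markers, 1 was higher and 2 were lower (MS4A1, -0.57, adjusted p = 0.00477, and BLK, -0.43, adjusted p = 0.00736), and their summed level was 60620 and 64630 normalized reads in the Control libraries and 57360 and 61720 in the GNA13-deficient libraries. Of 10 germinal center genes, 9 were tested and 3 were lower: LMO2 (-3.70, adjusted p = 0.00169), BCL6 (-2.49, adjusted p = 0.00085) and ELL3 (-1.05, adjusted p = 0.00292), while SERPINA9 was listed at 0 and the summed level was 29030 to 31120. Of 5 plasma cell genes, PRDM1 (-1.85, adjusted p = 0.00224) and IRF4 (-0.32, adjusted p = 0.0309) were lower. Among 9 T and NK cell genes, 3 were tested and CD4 was lower (115 and 175 against 12 and 5 reads). CD8A, with 5 and 5 against 0 and 0 reads, was called lower too but passed the filter on low values only through the Control libraries. CD3D, CD3E and CD2 were listed at 0. Among 6 myeloid genes, 4 were tested and 2 were lower, ITGAM (125 and 145 against 3 and 4 reads) and LYZ (83 and 83 against 11 and 17), and S100A8 and S100A9 were listed at 0. Summed levels of the T and NK list were 128.2 and 184 against 25.65 and 11.83 normalized reads, and those of the myeloid list 227.9 and 242.1 against 27.71 and 26.89. The part of these lists in the FCRL differences was not tested.

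Genes with the profile closest to that of FCRL4 were sought by the Euclidean distance between log2 values centered on each gene's own mean, over the 4 libraries. The closest were ECHDC3 and HIST1H4D, each with 0 and 0 reads in the Control libraries and 7 and 7 in the GNA13-deficient libraries (distance 0.233), followed by HIST1H4I with 4 and 3 against 20 and 20 reads (0.245). ECHDC3 and HIST1H4D passed the filter on low values only through the GNA13-deficient libraries, so their differences depend on the listed 0. For FCRLA, the member with the highest level, the closest genes were CMTM7 (distance 0.0118, log2 difference -0.23), MAN1B1 (0.014) and CXorf26 (0.0147). With 4 libraries in 2 groups, closeness in this measure says little beyond a like difference between genotypes and a like spread.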

How the data were processed

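RNA was extracted from treated cells, and libraries were made with a poly(A)-selecting stranded kit. The read length differs between the paper's methods and the labels. Alignment to hg19 was done by the authors with STAR. The submitters' processing notes name HTSeq. The annotation, strand setting and method of normalization are not given in the sources used here. The authors deposited normalized reads as log2 values, with a row of linear library totals that was used only for depth. An exact 0 marks no reads, or in Control replicate 2 at most 1 read.

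Low values stepped in whole reads, which were recovered by 1 constant per library (tolerance 0.05 reads). Genes above 0 in at least 2 libraries (16945 of 25066) were compared between genotypes by limma 3.58.1 (R 4.3.3), using lmFit and then eBayes with its trend option, without other covariates or a pseudocount and with 2 residual degrees of freedom. P-values were adjusted by Benjamini-Hochberg over all genes tested, and a gene was called under 0.05. The script was tested on simulated data. Sums, shares, positions and motifs were computed with Python 3.11.15, and each member's level per kb used its GENCODE v44 canonical transcript on GRCh37. The floor for a fold was 3 reads.

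Members and lists were chosen with earlier results of these data known. Named genes were all members, GNA13, FCRL6, FCGR2B and FCER2, the 4 called genes of each list with the largest absolute difference, genes at the floor in 1 genotype, and the 3 nearest profiles of 2 members. ETV3, CD5L, DUSP12, ATF6, FCGR2C, SYK, the phosphatases, IGJ and the marker genes named at 0 were added after their values were seen. Some genes that this rule includes are counted but not reported here by name. Alternatives were 3 other filters, pseudocounts of 1 and 10, 3 other scalings, the replicate number as a block, 2 other variance priors, voom on the recovered reads and leaving out each library.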

Additional observations from a re-analysis of the deposited data

How the results depend on the processing

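Under 16 alternatives, 230 values were recomputed, of which 155 kept their direction and their side of the threshold (for counts, stayed within 1.5 times). FCRL2 lay between 0.79 and 1.03 (log2) and FCRL4 between 2.05 and 3.27 over the alternatives that kept all libraries, with adjusted p under 0.05 in each that gave a value, and FCRL5 lay between 0.58 and 0.79. A filter set at the median mean level left out FCRL3, FCRL4 and FCRLB. With no filter, 1999 genes were called over all tested, 1 classical Fc receptor, 5 signaling partners, 0 ligand genes, 2 neighbors and 1 atypical memory B cell gene, and FCRL5 (0.59) had an adjusted p of 0.0597. With no variance trend, the counts were 2718, 1, 2, 0, 3 and 1 in the same order. The filter at the median mean level gave 5 neighbors, and called FCRL1 (0.28, adjusted p = 0.0402) and FCRLA (-0.23, adjusted p = 0.0289). FCRLA was also called with a filter of 2 recovered reads (-0.23, adjusted p = 0.0485), a robust variance prior (-0.23, adjusted p = 0.0419), voom (-0.23, adjusted p = 0.0291) and quantile normalization (-0.41, adjusted p = 0.0045). Centering libraries on their medians moved the median difference of all genes from -0.02 to 0.18, and gave 0 ligand genes, 13 neighbors and 2 atypical memory B cell genes, with FCRL1 called at 0.49 (adjusted p = 0.0189). The causes of the other changes were not tested.

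The replicate numbers were shared between genotypes in the labels, which do not say what a number marks, and the replicate differences of the genotypes correlated at 0.453 over 8473 genes. With the replicate number as a block, 5 FCRL members and 2 ligand genes were called, with FCRL1 at 0.28 (adjusted p = 0.0203) and FCRLA at -0.23 (adjusted p = 0.0107), and 6616 genes were called against 5037 without the block.

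Without any 1 library, limma called 0 genes over all tested (1 residual degree of freedom, smallest adjusted p 0.0708), while 5257 to 5600 genes had an unadjusted p under 0.05, so every count, of the members and of each list, was 0 to 0. The lone library of a genotype was assumed to vary like the other genotype. Differences ranged from 0.65 to 0.66 for GNA13, from 0.74 to 0.90 for FCRL2, from 2.66 to 2.97 for FCRL4 and from 0.52 to 0.65 for FCRL5. Signs turned for FCRL3 without GNA13-deficient replicate 1 (-0.16; range to 1.04) and for FCRLB, at -0.08 without Control replicate 1 and at -0.20 when GNA13-deficient replicate 2 was left out (range to 0.23). Counting error was widest for FCRL3 and FCRL4, with 10 to 75 reads per library.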
